A study of Mus musculus with 19 samples.

Results

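Transcripts of 34 genes that mark T cells, B cells and natural killer (NK) cells were followed in sorted alveolar type II (AT2) cells and in lung tissue of the mouse. The genes were taken by symbol, matched through their Entrez IDs, and all 34 were found among the 36528 gene IDs of the tables. Polyadenylated RNA was sequenced in 19 libraries of 4 groups: 4 of AT2 cells from control mice, 5 of AT2 cells from mice labelled Etv5KO, 5 of control lung and 5 of lung labelled Etv5KO. Every mouse carried SpcCreERT2, a tamoxifen-activated Cre recombinase under the surfactant protein C promoter, together with RosatdTomato, a red fluorescent Cre reporter. Mice labelled Etv5KO carried Etv5ko/loxp in addition, one knockout allele and one loxP-flanked allele of the ETS family transcription factor gene Etv5. All received tamoxifen at 100 mg/kg over 5 days and were kept for 5 more days. AT2 cells, which line the alveoli and secrete surfactant, were gated as positive for EpCAM and tdTomato and negative for CD45 and CD31. CD45, encoded by Ptprc, is on the surface of all lymphocytes, so the gate is set against the cells that the 34 genes mark. Lung tissue was not sorted. The Cre driver is active where surfactant protein C is made. The knockout allele does not depend on Cre, so other cells of Etv5KO mice, lymphocytes included, carry it too. The labels state neither age nor sex nor strain.

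T cells recognise antigen through the T cell receptor, which signals through the CD3 chains and the kinases LCK and ZAP70. B cells use surface immunoglobulin, which signals through the heterodimer of CD79A and CD79B, products of Cd79a and Cd79b that are both needed to carry the receptor to the cell surface. NK cells carry activating and inhibitory receptors instead and kill by releasing perforin and granzymes, as cytotoxic T cells also do. The lung holds lymphocytes of all 3 kinds in its vessels, airway walls and interstitium.

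Promoters of 3 members are shown because many lymphocyte promoters are known to be bound by ETS family proteins, the family of ETV5, and because each has the highest level per transcript length in control lung among the members of its lineage that have a window: Cd79a for B cells, Lck for T cells and Gzma for cytotoxic cells. Each is the 250 bases before a transcript start in RefSeq, assembly GRCm38.p6, in lower case with each GGAA or its reverse complement TTCC, the core that ETS proteins bind, in capitals. Lck has 2 starts, and the window at the higher coordinate is the distal one.
Cd79a, chr7:24897247-24897496, plus strand: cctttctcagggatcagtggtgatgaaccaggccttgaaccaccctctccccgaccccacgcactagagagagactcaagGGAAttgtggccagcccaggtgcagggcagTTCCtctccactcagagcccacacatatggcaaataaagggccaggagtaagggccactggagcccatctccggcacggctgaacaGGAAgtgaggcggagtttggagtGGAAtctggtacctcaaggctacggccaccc
Lck proximal, chr4:129558373-129558622, minus strand: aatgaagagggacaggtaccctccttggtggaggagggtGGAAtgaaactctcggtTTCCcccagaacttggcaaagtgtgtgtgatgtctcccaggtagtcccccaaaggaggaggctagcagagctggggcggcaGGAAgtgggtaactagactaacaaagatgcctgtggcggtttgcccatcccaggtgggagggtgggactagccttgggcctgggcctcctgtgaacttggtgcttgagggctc
Lck distal, chr4:129573642-129573891, minus strand: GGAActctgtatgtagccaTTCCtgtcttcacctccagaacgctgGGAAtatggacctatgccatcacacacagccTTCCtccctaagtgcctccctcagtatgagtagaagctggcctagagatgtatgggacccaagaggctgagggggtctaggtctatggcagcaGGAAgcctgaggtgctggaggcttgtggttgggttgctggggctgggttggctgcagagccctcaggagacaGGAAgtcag
Gzma, chr13:113100982-113101231, minus strand: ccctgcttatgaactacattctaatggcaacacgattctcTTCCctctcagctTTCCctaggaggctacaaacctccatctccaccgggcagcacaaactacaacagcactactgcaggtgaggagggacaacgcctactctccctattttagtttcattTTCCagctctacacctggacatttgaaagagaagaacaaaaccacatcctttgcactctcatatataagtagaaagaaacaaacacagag
The GGAA core is too common to mark a set of genes. It was present on either strand in 21 of the 26 windows found for 22 members and in 93.4% of all 32851 windows of the same length. The longer match AGGAAGT, which contains that core, was present in 9 of the 26 member windows and in 7.69% of all windows, Cd79a and both Lck windows among the 9 and Gzma not. The RUNX motif TGTGGT was in 9 of 26 member windows against 14.05% of all, and the E-box CANNTG in 24 of 26 against 66.2%. Some genes have more than 1 window, and those of Ncr1 overlap. By gene the counts were 19 (GGAA), 8 (AGGAAGT), 8 (TGTGGT) and 21 (CANNTG) of 22. These are matches of letters, and no binding was measured.

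Total counts ran from 17426415 to 28671262 in the AT2 libraries and from 14971793 to 26989453 in the lung libraries. Etv5 was not lower in either tissue labelled Etv5KO, at 667 ± 36.1 (SD, n = 4) in control and 714 ± 58.4 (SD, n = 5) CPM in Etv5KO AT2 cells (edgeR adjusted p = 0.505) and at 104 ± 7.20 and 113 ± 10.8 CPM in lung (SD, n = 5 each, adjusted p = 0.978). A count over the whole gene does not show whether a part was removed, so Etv5KO stands below for the label. CPM are counts relative to each library total (the usual depth-scaled unit), here after TMM normalisation over all 19 libraries. The gate was visible in its own genes: against control lung, Epcam was 3.99-fold higher in control AT2 cells, Pecam1 (CD31) 47.1-fold lower and Ptprc 28.7-fold lower. All 10 AT2 genes examined were higher in the sorted control cells (log2 2.65 to 3.27).

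In unsorted lung all 34 genes were well covered, with 47 to 1284 reads per library for the 32 genes other than Cd79b and Ly6d. Levels are compared between genes on the authors' length-normalised scale (nRPKM, RPKM adjusted by a size factor). Cd79b was highest in control lung at 37.1 ± 10.5 nRPKM (SD, n = 5). Next came Gzma at 23.9 ± 3.60, encoding a granzyme protease of cytotoxic granules, Cd79a at 18.1 ± 5.29 and Ly6d at 17.0 ± 4.65, a GPI-anchored surface protein that marks B-lineage commitment and is also made by some epithelia. Cd79b was above Cd79a in each of the 5 libraries, while the ranges of Gzma, Cd79a and Ly6d over the libraries overlapped. Cd2, an adhesion receptor of T and NK cells, stood at 14.8 ± 1.48 nRPKM, Fcmr, the receptor for immunoglobulin M, at 14.7 ± 4.68, Nkg7, a cytotoxic granule membrane protein, at 12.9 ± 1.10 and Ms4a1, which encodes CD20, at 12.6 ± 3.16, again with overlapping ranges. The lowest was Eomes, a T-box transcription factor of NK and memory T cells, at 1.01 ± 0.179 nRPKM.

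Levels within a receptor complex were alike to within a few fold in control lung. The CD3 chains stood at 7.46 ± 1.40 (Cd3g), 5.26 ± 0.688 (Cd3e) and 3.80 ± 0.707 nRPKM (Cd3d), and the co-receptors at 5.54 ± 1.52 (Cd8b1), 3.26 ± 0.379 (Cd4) and 2.18 ± 0.361 (Cd8a). Among the signalling proteins behind them, the kinase gene Lck stood at 7.96 ± 1.02, the adaptor gene Lat at 6.38 ± 0.701 and the kinase gene Zap70 at 2.99 ± 0.577. The co-stimulatory and scavenger-type receptors Cd27 (2.97 ± 0.578), Cd5 (2.40 ± 0.716), Cd6 (2.06 ± 0.415) and Cd28 (1.36 ± 0.188) were lower than Cd2. Of the killing machinery, Gzmb stood at 4.83 ± 0.575 and Prf1, perforin, at 4.49 ± 0.634. The NK receptor genes Klrd1 (CD94), Ncr1 (NKp46) and Klrb1c (NK1.1) stood at 4.55 ± 0.984, 4.11 ± 0.870 and 2.79 ± 0.680, and Tbx21, the T-box factor T-bet, at 1.70 ± 0.367. Of the other B cell genes, the inhibitory lectin Cd22 stood at 8.47 ± 2.68, the SRC family kinase Blk at 4.89 ± 1.23 and the B-lineage transcription factor Pax5 at 3.05 ± 1.24. The homing receptor Ccr7 stood at 8.96 ± 1.74, the shared interleukin-2 and interleukin-15 receptor chain Il2rb at 6.89 ± 0.870 and the interleukin-7 receptor Il7r at 5.38 ± 0.734 nRPKM (all SD, n = 5).

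**Figure D1:**
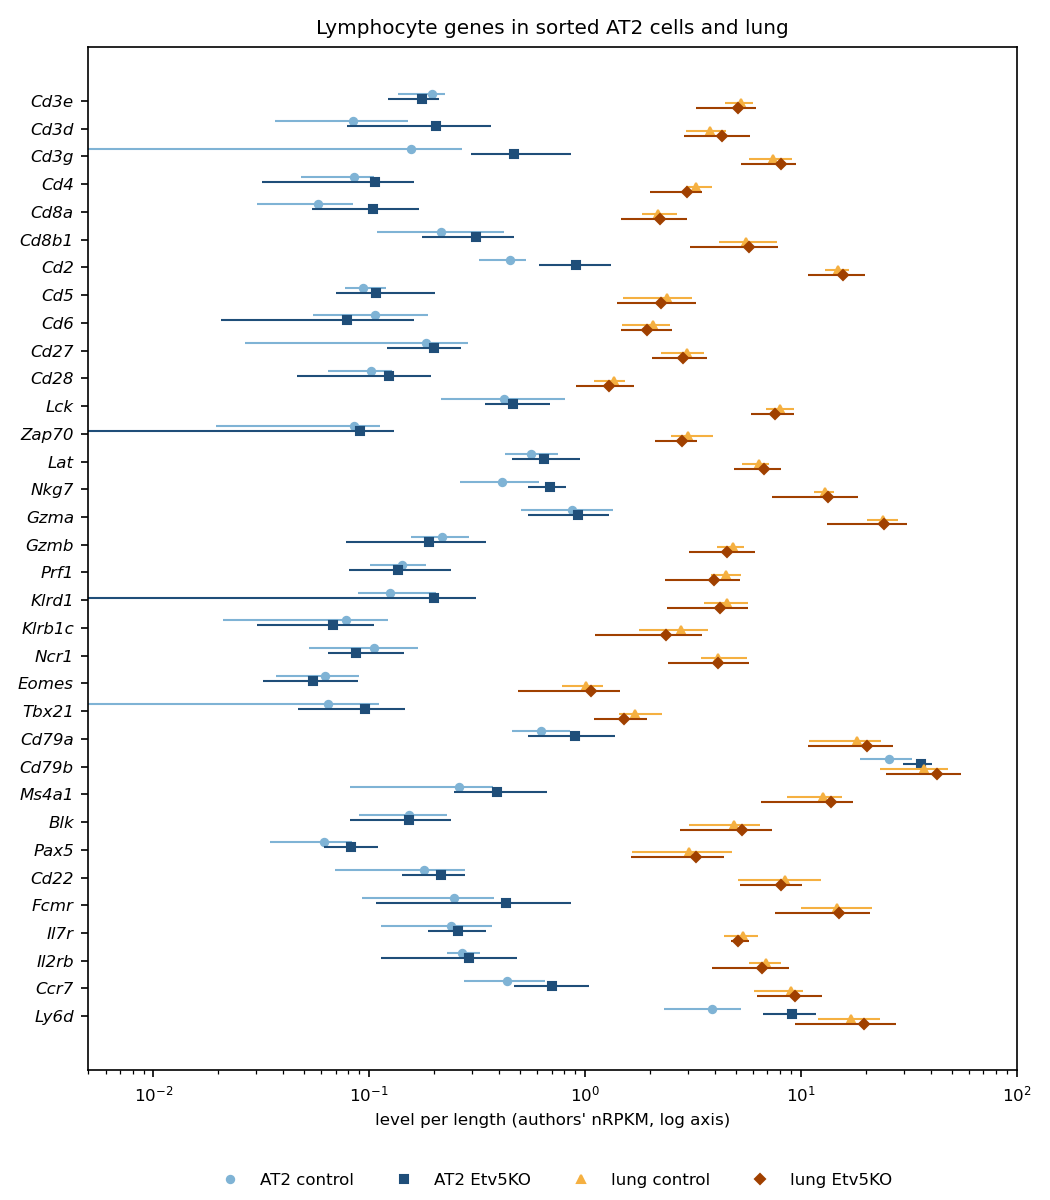
Level of each of the 34 genes on the authors' length-normalised scale (nRPKM, horizontal log axis) in the 4 groups; symbols are group means and lines run from the lowest to the highest library, reaching the left edge where a library is at 0. The lung symbols lie far to the right of the AT2 symbols for nearly every gene, while for Cd79b the 4 groups run together and Ly6d lies between.

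In the median, B cell genes varied more between the 5 control lungs than T or NK genes did. Over the 5 control lungs the coefficient of variation had a median of 30.4% for 6 B cell genes without Cd79b, against 17.8% for 14 T cell genes and 18.0% for 9 cytotoxic and NK genes. Over genes it ran from 24.9% to 40.6% (B cell), 9.93% to 30.2% (T cell) and 8.32% to 24.4% (cytotoxic and NK), so B and T cell genes overlapped. Pax5 had the widest range, with 17.8, 39.8, 25.8, 29.5 and 13.6 CPM in control lungs 1 to 5, and Nkg7 the narrowest, with 10.8, 12.0, 9.99, 12.3 and 11.2 CPM. Among the lungs labelled Etv5KO the medians were 32.3% for B cell, 23.7% for T cell and 33.7% for cytotoxic and NK genes. Genes of a lineage were read in the same lungs and are not independent, and differences in spread between lineages were not tested. In bulk tissue fewer cells of a type and less RNA per cell cannot be told apart.

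Summed over the 6 B cell genes, control lungs 1 to 5 held 127, 215, 154, 179 and 94.96 CPM and Etv5KO lungs 1 to 5 held 86.7, 207, 153, 197 and 158 CPM. The 14 T cell genes summed to 141, 149, 116, 146 and 113 CPM in control and to 94.0, 159, 135, 159 and 114 CPM in Etv5KO lungs. For the 9 cytotoxic and NK genes the sums were 76.4, 96.1, 72.3, 88.9 and 72.2 CPM in control and 44.8, 93.7, 92.2, 101 and 58.0 CPM in Etv5KO lungs. The genotypes overlapped in each lineage, and Etv5KO lung 1 was the lowest of the 10 in each. For the cytotoxic and NK genes the Etv5KO lungs spread more widely, with lungs 1 and 5 below every control. That library was the lowest of all 10 lungs for 24 of the 34 genes, Etv5KO lung 5 for 6 and control lung 5 for 4, while Etv5KO lung 4 was the highest for 12, Etv5KO lung 2 for 11 and control lung 2 for 8. Ptprc, which lymphocytes share with other leukocytes, was also lowest in Etv5KO lung 1, at 145 CPM against 192 to 317 CPM in the other 9.

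**Figure D2:**
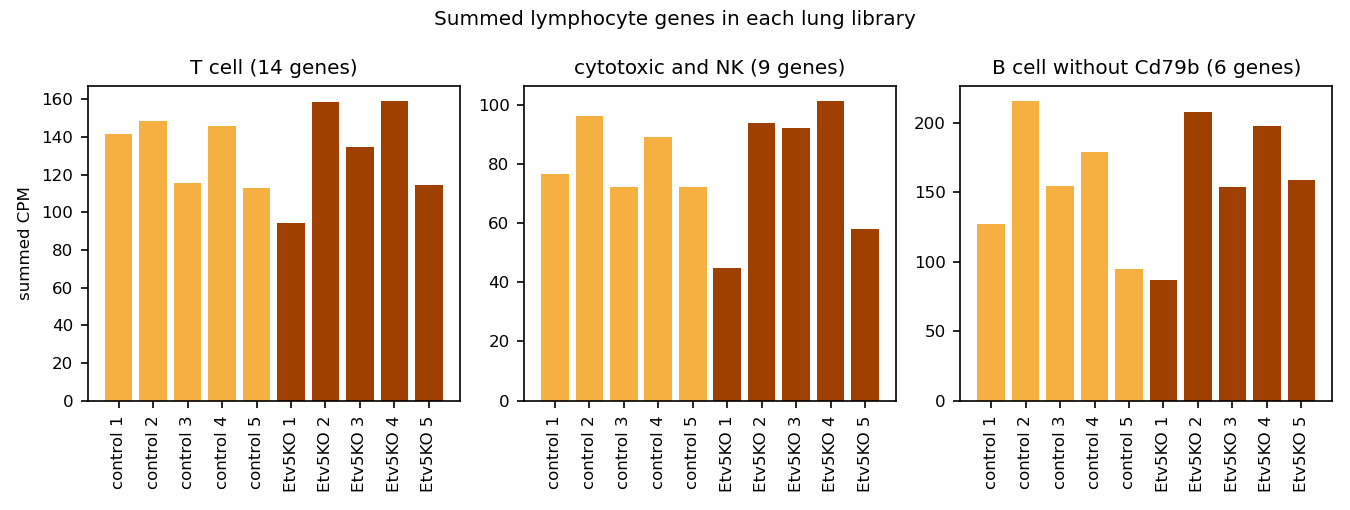
Summed CPM of the T cell genes (14), the cytotoxic and NK genes (9) and the B cell genes other than Cd79b (6) in each of the 10 lung libraries, with control lungs in light and Etv5KO lungs in dark bars. Etv5KO lung 1 is the lowest bar in each panel, and the bars of the B cell panel run from 86.7 to 215 CPM.

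Sorting for AT2 cells lowered nearly all of these transcripts. Against control lung, 33 of the 34 genes were lower in control AT2 cells, where 38.9% of the 17118 genes tested were lower (74.5% changed in either direction, edgeR adjusted p under 0.05). The groups did not overlap for those 33, against 35.9% of all genes. The median log2 fold change of the 34 was -4.77 and that of all genes -0.01. The only exception was Cd79b. The gate is set against CD45-positive cells, so lower values follow from the design and the counts are no independent result. In AT2 libraries alone 19 of the 34 genes had too few reads to be tested, so they entered this comparison through lung. Scaling by library size alone moved the median of all genes to -0.42 and the share of higher genes among those called from 47.8% to 25.9%; the median of the 34 was then -5.18.

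By role, the median log2 fold change ran from -4.21 for the co-stimulation and adhesion genes to -5.48 for the B cell genes, with Ly6d apart at -2.07; differences between roles were not tested. The 6 genes of the T cell receptor complex and its co-receptors fell by 24.3-fold (Cd8b1) to 43.3-fold (Cd3g). Cd3e showed it plainly, at 0.380, 0.389, 0.346 and 0.237 CPM in the 4 control AT2 libraries and 9.64, 10.1, 7.81, 9.25 and 7.41 CPM in the 5 control lungs. The co-stimulation and adhesion genes fell by 12.5-fold (Cd28) to 32.2-fold (Cd2), and the signalling genes by 10.9-fold (Lat), 18.6-fold (Lck) and 32.6-fold (Zap70). Lat, which encodes an adaptor also present in mast cells and platelets, fell least of all genes but Cd79b and Ly6d. Cytotoxic granule genes fell by 21.1-fold (Gzmb) to 30.1-fold (Nkg7), NK receptor genes by 32.6-fold (Klrb1c) to 37.8-fold (Ncr1), and the T-box factors by 15.7-fold (Eomes) and 24.6-fold (Tbx21). Ccr7 fell 19.9-fold, Il7r 22.1-fold and Il2rb 24.7-fold. The B cell genes other than Cd79b fell by 27.9-fold (Cd79a) to 56.6-fold (Fcmr). Ptprc itself fell 28.7-fold, and the 12 pan-leukocyte genes, all lower, had a median log2 of -4.79 beside the -4.77 of the lymphocyte genes.

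Markers of other cells outside the gate fell as far or further in control AT2 cells. All 10 endothelial genes (log2 -5.85 to -5.40), 9 of 9 mesenchymal genes (-6.76 to -4.56) and 4 of 4 red blood cell genes (-10.75 to -7.23) were lower. Of 16 macrophage, monocyte, dendritic and neutrophil genes 14 were lower and 1 was higher, at a log2 of 2.79; the list holds Lyz2, a lysozyme gene that AT2 cells also make. Of 6 pan-epithelial genes 5 were higher and 1 lower. What remained of the lymphocyte genes was small: the 32 genes other than Cd79b and Ly6d had 0 to 44 reads in an AT2 library (median 8, with 4 of 288 values at 0), so single values in AT2 cells rest on few reads.

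In the Etv5KO mice the same comparison gave 33 of 34 genes lower, where 39.7% of 16740 genes were lower (78% changed in either direction), with a median log2 of -4.40. Groups did not overlap for 32, against 35.9% of all genes. Ncr1 fell most, 45.2-fold, and Lat (10.1-fold) and Cd28 (10.3-fold) fell least apart from Cd79b and Ly6d. By library size alone the median of all genes moved to -0.36, the share of higher genes among those called from 49.1% to 27.7%, and the median of the 34 to -4.77. Cd79b did not pass in this genotype either. The limits given for control mice, from the gate and from few AT2 reads, hold here too.

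**Figure D3:**
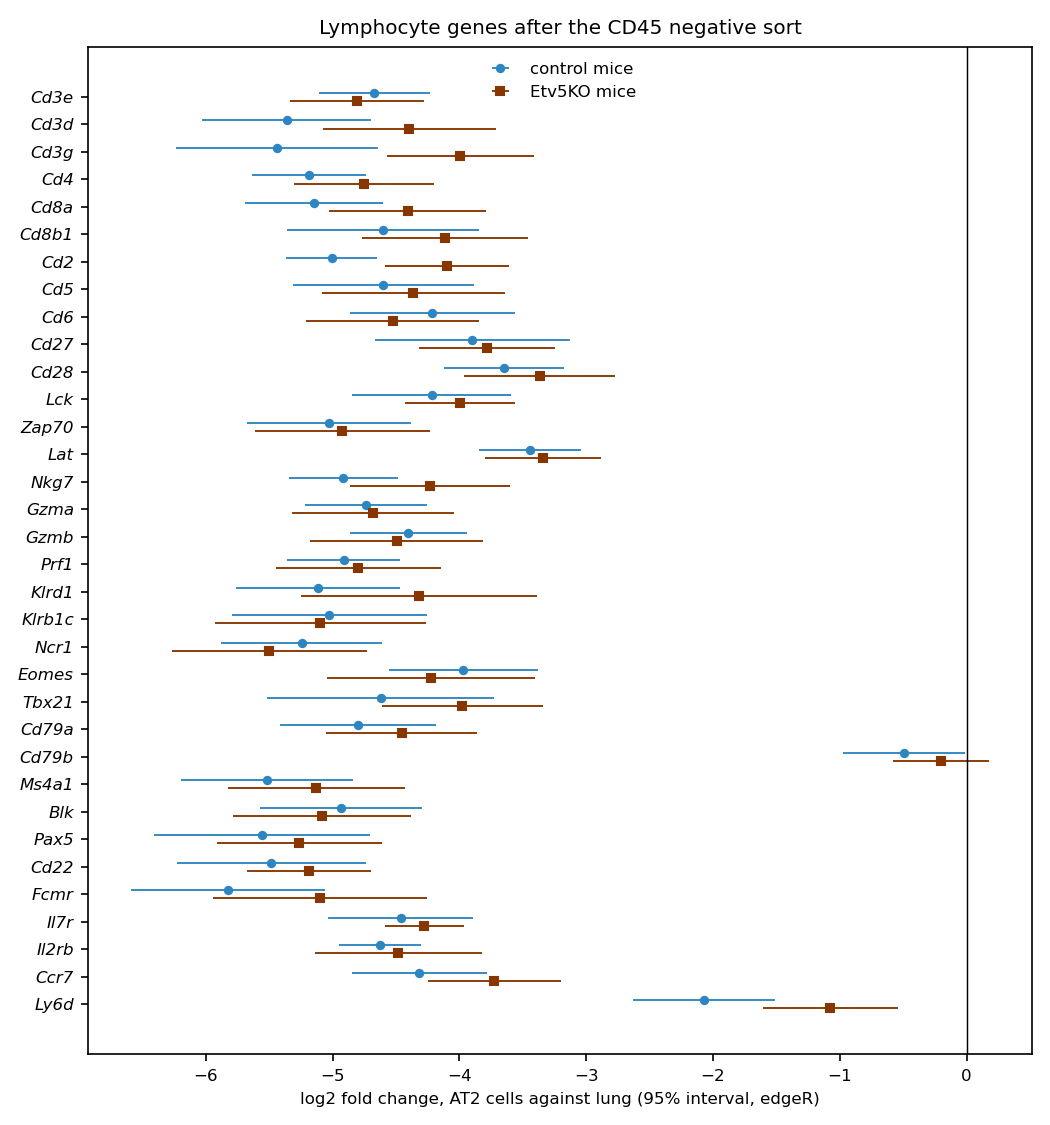
Log2 fold change of AT2 cells against lung for each gene, with its 95% interval, in control mice (circles) and Etv5KO mice (squares), from edgeR. The points lie between -6 and -3 except for Ly6d, at -2.07 and -1.08, and Cd79b, at -0.49 and -0.20.

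Cd79b stood much closer to its lung level in AT2 cells than its partner Cd79a did. The counts were ample, 406 to 1037 reads in an AT2 library. Cd79b stood at 36.0, 27.8, 42.3 and 24.1 CPM in control AT2 cells and at 40.6, 59.3, 42.4, 58.6 and 28.6 CPM in control lung. The groups overlapped, and the log2 difference was -0.49 (SE 0.22, 95% interval -0.97 to -0.01, edgeR adjusted p = 0.0597, range over 16 alternatives 0.00238 to 0.183, under the threshold in 7). It passed with DESeq2, library size or the authors' size factors as scaling, no filter and 1 fit over all groups. It also passed without control AT2 library 3 (adjusted p = 0.0315) or without control lung 5 (0.0115). In each of these 7 all 34 genes were lower. Over the 16 alternatives the log2 difference of Cd79b ran from -0.91 to -0.35. In Etv5KO mice it stood at 51.5, 37.2, 43.9, 48.0 and 45.1 CPM in AT2 cells and 30.8, 68.6, 49.2, 64.8 and 49.5 CPM in lung, a log2 difference of -0.20 (SE 0.18, adjusted p = 0.305, 0.00944 to 0.640 over 17 alternatives, under the threshold in 2). One of the 2 left out Etv5KO lung 1 (log2 -0.35, adjusted p = 0.0204) and the other scaled by library size. Over the 17 alternatives the log2 difference ran from -0.58 to -0.09. Cd79a, by contrast, stood at 1.19, 0.827, 0.866 and 0.653 CPM in control AT2 cells and 21.5, 32.4, 24.1, 31.4 and 14.9 CPM in control lung. For Cd79a every control lung lay far above every control AT2 library, and the mean difference was 27.9-fold.

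The ratio of the 2 partners separated the tissues. In nRPKM, Cd79b exceeded Cd79a by 33.4, 37.2, 54.1 and 40.9 times in control AT2 libraries and by 48.2, 35.5, 63.8, 42.0 and 26.2 times in Etv5KO AT2 libraries. In lung the ratio was 2.09, 2.03, 1.95, 2.06 and 2.13 in control and 2.31, 2.07, 1.89, 2.21 and 2.10 in Etv5KO libraries. In control lungs the ratio was 2.05 ± 0.0657 (SD, n = 5), although each gene varied more than that between the same lungs (Cd79b had a coefficient of variation of 28.4%). AT2 cells and lung differed by 4.31 on the log2 scale in control mice (exact two-sided permutation p = 0.00794, the smallest that 4 against 5 libraries allow) and by 4.29 in Etv5KO mice (exact permutation p = 0.00794, the smallest that 5 against 5 allow), with adjusted p = 0.0159 for each over the 4 ratios tested. Between genotypes the mean log2 ratio differed by 0.02 in AT2 cells (exact permutation p = 0.937, adjusted 0.937) and by 0.04 in lung (exact permutation p = 0.444, adjusted 0.593). These ratio tests were chosen after the values had been seen. Those between tissues restate the fold changes of the 2 genes given above, so their p-values add no support.

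No other B cell gene among the members accompanied Cd79b. Ms4a1, Blk, Pax5, Cd22 and Fcmr stood at 0.062 to 0.261 nRPKM in control AT2 cells, against 25.5 ± 6.35 nRPKM for Cd79b (SD, n = 4). In the RefSeq table the spans of Cd79b and Ly6d overlap no other gene, while those of 9 other members do, and whether counting used strand is not stated. Ly6d was the second highest member in AT2 cells, at 3.89 ± 1.22 nRPKM in control and 9.05 ± 2.03 nRPKM in Etv5KO libraries, against 17.0 ± 4.65 in control lung. Its log2 difference between AT2 cells and lung was -2.07 (SE 0.25) in control mice, without overlap, and -1.08 (SE 0.25, adjusted p = 0.0013) in Etv5KO mice, where the lowest lung, Etv5KO lung 1 (6.73 CPM), lay below the highest AT2 library (8.53 CPM). Among the other 32 genes the highest mean in control AT2 cells was that of Gzma, at 0.866 nRPKM. Gzma is one of the 9 and overlaps Cdc20b, so its reads could belong to either gene.

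**Figure D4:**
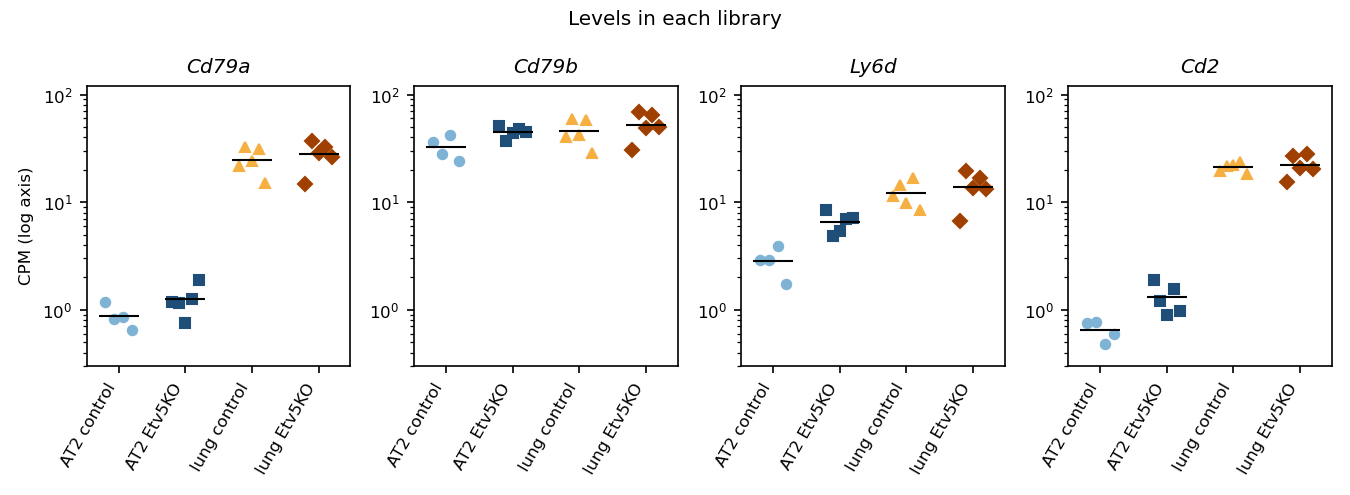
CPM of Cd79a, Cd79b, Ly6d and Cd2 in each library (points, vertical log axis) with the mean of each group (line). Cd79a and Cd2 are at about 2 CPM or less in every AT2 library, Cd79b is between 24.1 and 68.6 CPM in all 19 libraries, and for Ly6d the Etv5KO AT2 libraries (4.80 to 8.53 CPM) lie above the control ones (1.72 to 3.94 CPM).

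Lists of further T, NK and B cell genes behaved like the members, with a few genes apart. Of 20 other T cell genes 19 were lower in the sorted control cells. Lef1, a transcription factor of naive T cells, fell 37.5-fold, Themis, a thymocyte selection protein, 40.1-fold, and Tcf7 9.56-fold. Cd247, the CD3 zeta chain gene, fell only 2.05-fold. Of 16 other NK and cytotoxic genes tested 14 were lower, among them Klrk1 (29.4-fold), Cd244a (27.2-fold), the chemokine gene Ccl5 (26.9-fold) and Fasl (13.8-fold). Of 20 other B cell genes tested 18 were lower, among them Cd40 (44.6-fold), Ebf1, a B-lineage transcription factor (53.4-fold), Cd37 (38.9-fold) and Btk, the kinase downstream of the B cell receptor (36.4-fold). In Etv5KO mice 17 of 18 T cell, 12 of 14 NK and cytotoxic and 18 of 20 B cell genes tested were lower, among them Cxcr6, a tissue-homing chemokine receptor (15.8-fold), and Ctsw, a cathepsin of cytotoxic cells (21.5-fold).

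The genes that were higher in control AT2 cells were 1 in each list, named here after their values were seen. Vpreb3, which encodes a surrogate light chain-like protein of B cell precursors, stood at 20.0, 5.84, 22.8 and 21.3 CPM in control AT2 cells and 5.01, 7.10, 8.11, 9.39 and 8.78 CPM in control lung (2.27-fold, edgeR adjusted p = 0.0058), and 3 of the 4 AT2 libraries lay above every lung. Foxp3, the factor of regulatory T cells, stood at 10.3 ± 1.41 CPM in AT2 cells and 7.83 ± 0.920 CPM in lung (1.31-fold, edgeR adjusted p = 0.0170). In the RefSeq table Foxp3 overlaps Ccdc22 and Flicr, Vpreb3 overlaps Gm16221 and Serpinb9 overlaps Gm36181, so reads could belong to either gene of a pair. Serpinb9, an inhibitor of granzyme B, was 1.35-fold higher (adjusted p = 2.37e-04). The log2 values of Foxp3 (0.39) and Serpinb9 (0.43) are about the size of a scaling shift. By library size alone the median of all genes moved from -0.01 to -0.42 in this comparison. Whether either gene stayed higher under that scaling is not reported here. Ciita, the activator of MHC class II genes, which AT2 cells are known to express, did not pass (1.07-fold, adjusted p = 0.612). The same 3 genes were higher in AT2 cells than in lung in Etv5KO mice, Vpreb3 2.67-fold, Serpinb9 1.80-fold and Foxp3 by 0.42 on the log2 scale. By library size alone the median of all genes was -0.36 there.

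Between the genotypes within AT2 cells, Ly6d was the one member that passed. Of the 34 genes only 15 had enough reads to be tested, and 1 was called, where 9.87% of 14939 genes were called and 5.03% called higher. Ly6d stood at 2.93, 2.87, 3.94 and 1.72 CPM in control and at 8.53, 4.80, 5.41, 7.03 and 7.07 CPM in Etv5KO AT2 cells. All 5 Etv5KO libraries lay above all 4 controls, a 2.27-fold rise (log2 1.18, SE 0.24, 95% interval 0.67 to 1.70, edgeR adjusted p = 0.0076). Its adjusted p ran from 2.84e-05 to 0.0240 over 16 alternatives, and its log2 change from 1.01 to 1.38.

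Cd2 and Cd79b came next and did not pass. Cd2 stood at 0.760, 0.779, 0.476 and 0.593 CPM in control and 1.90, 1.21, 0.888, 1.56 and 0.980 CPM in Etv5KO AT2 cells, from 10 to 29 reads. The groups did not overlap, as for 5.9% of all genes in this direction, and the change was 1.98-fold (log2 0.98, SE 0.29, edgeR adjusted p = 0.0536, 0.0325 to 0.161 over 15 alternatives, under the threshold in 4). It passed without Etv5KO AT2 library 3 (0.0382). Cd79b had a mean of 32.6 ± 8.20 CPM in control (SD, n = 4) and 45.1 ± 5.31 CPM in Etv5KO cells (SD, n = 5), with overlap (log2 0.48, SE 0.15, adjusted p = 0.0781, 0.0259 to 0.226 over 16 alternatives, under the threshold in 4). It passed without control AT2 library 3 (0.0259) or Etv5KO AT2 library 2 (0.0492). At an unadjusted p under 0.05 there were 5 of the 15, with Nkg7 (log2 0.72) and Ccr7 (0.65) besides these 3, where 22.2% of all genes were.

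All 15 tested genes had a log2 change above 0 (48.8% of all genes tested), but the filter favours genes with reads in the larger group and leaves 19 members out. The count was 14 of 15 with limma-voom, 10 of 13 without Etv5KO AT2 library 5, 12 of 13 without Etv5KO AT2 library 1, 12 of 14 without Etv5KO AT2 library 2 and 14 of 18 without control AT2 library 4. The median of the tested members, 0.48, was 0.25 without Etv5KO AT2 library 5, 0.27 without Etv5KO AT2 library 1 and 0.23 without control AT2 library 4. Without the filter, 26 of the 34 were above 0 (median 0.21), where 46.7% of 24280 genes were, and the call for Ly6d was again the only one, where 5.8% of genes were called. The largest value there was that of Cd3g, with 4, 6, 4 and 0 reads in control and 8, 6, 22, 6 and 8 reads in Etv5KO libraries (log2 1.52, adjusted p = 0.138), of which 1 library gave 22. By contrast Cd6 (log2 -0.43), Klrb1c (-0.30) and Ncr1 (-0.26) were below 0. Summed over the 32 genes other than Cd79b and Ly6d, control AT2 libraries held 21.2, 15.4, 14.9 and 10.2 CPM and Etv5KO libraries 22.4, 20.6, 13.8, 18.5 and 22.4 CPM. Those sums overlapped, and control AT2 library 4, at 10.2, was the lowest of the 9 AT2 libraries for 15 of the 34 genes and for Ptprc (4.45 against 6.05 to 12.6 CPM).

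Markers of other cells were read beside these values in AT2 cells. Ptprc did not pass (log2 -0.07, 95% interval -0.62 to 0.48, adjusted p = 0.913), and 6 of 12 pan-leukocyte genes were above 0 (median 0.05), with sums of 70.5 to 113 CPM in control and 74.2 to 108 CPM in Etv5KO libraries and no marker at 0. All 10 endothelial genes were above 0 (log2 0.02 to 0.49), with sums of 112 to 168 CPM in control and 116 to 199 CPM in Etv5KO libraries, and all 9 mesenchymal genes (0.07 to 0.65), with 52.3 to 93.4 and 64.7 to 116 CPM. None of these 31 genes was called by edgeR, DESeq2 or limma-voom, with 4 at an unadjusted p under 0.05 in edgeR. Of 15 macrophage, monocyte, dendritic and neutrophil genes tested edgeR called 2 higher and 0 lower (DESeq2 2 higher and 2 lower). Of 10 AT2 genes edgeR called 3 lower (DESeq2 6, limma-voom 4), and of 6 pan-epithelial genes 1 higher (DESeq2 4, limma-voom 1). The part of all these genes in the lymphocyte values was not tested.

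Of the further lymphocyte lists in AT2 cells, edgeR called 1 of 22 tested genes, where 9.87% of all genes were called, limma-voom 1 and DESeq2 2, the second a T cell gene. Serpinb9 rose from 215 ± 6.18 CPM (SD, n = 4) to 342 ± 23.1 CPM (SD, n = 5), 1.59-fold without overlap (edgeR adjusted p = 1.09e-04). Cd247 (log2 0.02), Foxp3 (-0.07), Il18rap, an interleukin-18 receptor chain (-0.70), Ciita (0.16) and Vpreb3 (0.42) did not pass, with adjusted p from 0.131 to 0.957. For Vpreb3 control AT2 library 2 stood far below the other 3 controls, at 5.84 CPM.

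**Figure D5:**
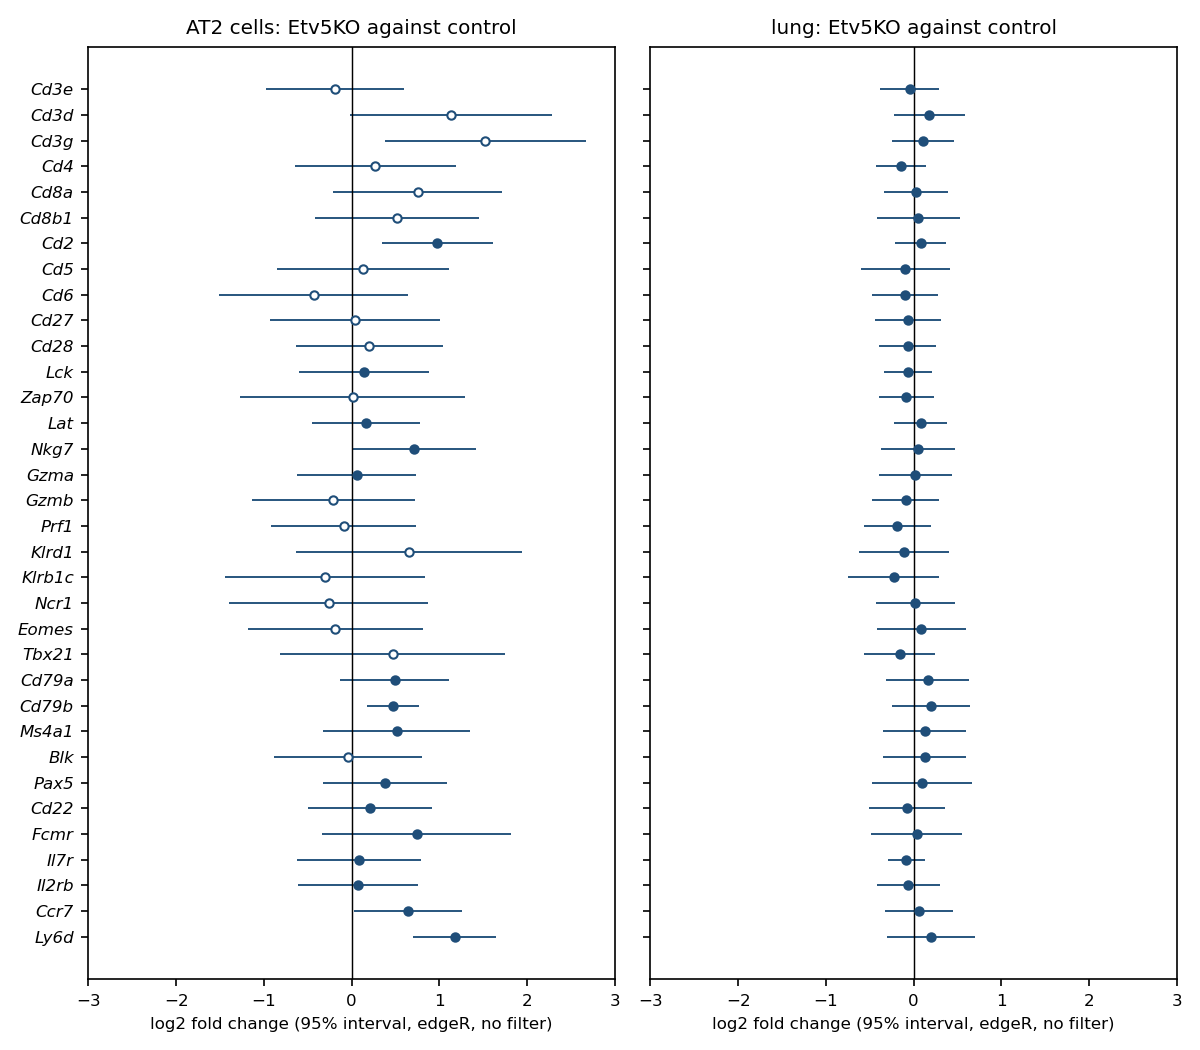
Log2 fold change of Etv5KO against control with its 95% interval in AT2 cells (left) and lung (right) for all 34 genes, from edgeR without a filter on low counts; filled points are the genes that passed the usual filter. In AT2 cells the intervals are wide and Ly6d lies at 1.18, while in lung all 34 intervals include 0.

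In lung no lymphocyte gene separated the genotypes. All 34 were tested and 0 were called, where 0.415% of 17098 genes were, and 0 had an unadjusted p under 0.05 in edgeR (5.52% of all genes); DESeq2 and limma-voom also called 0. The log2 changes ran from -0.23 (Klrb1c) to 0.19 (Ly6d) with a median of 0.01, 18 above 0 (46% of all genes), and the groups overlapped for every member (1.52% of all genes did not overlap). Over the 34 genes the lowest lower limit of the 95% intervals was that of Klrb1c (-0.81 to 0.34) and the highest upper limit that of Ly6d (-0.37 to 0.75). The interval was -0.41 to 0.31 for Cd3e, -0.49 to 0.51 for Ncr1 and -0.38 to 0.68 for Cd79a on the log2 scale. B cell genes were above 0 in 6 of 7, from -0.08 (Cd22) to 0.19 (Cd79b), and NK receptor genes in 1 of 3. Which side of 0 the genes fell on depended on single libraries: 24 of 34 were above 0 without Etv5KO lung 1 (median 0.14) and 8 of 34 without Etv5KO lung 4 (median -0.09). The 12 pan-leukocyte genes were all below 0 (median -0.10) and none was called by edgeR, DESeq2 or limma-voom, nor had an unadjusted p under 0.05 in edgeR.

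Further lymphocyte genes in lung gave the same picture. Of 20 T, 17 NK and cytotoxic and 20 B cell genes tested, 0 were called by edgeR, DESeq2 or limma-voom, with 2 of the 57 at an unadjusted p under 0.05 in edgeR. Tcf7 (log2 -0.02), Lcp2, a T cell adaptor (-0.19), Ccl5 (-0.04), Cd37 (-0.08) and Ciita (0.18) had adjusted p of 0.978 or more, and Serpinb9 stood at 160 ± 13.8 CPM in control and 192 ± 22.4 CPM in Etv5KO lung (SD, n = 5 each, log2 0.26, adjusted p = 0.516).

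The effect of genotype was not shown to differ between AT2 cells and lung for any member. The interaction term called 0 of 34, where 1.59% of 17698 genes were called, and DESeq2 and limma-voom called 0. At an unadjusted p under 0.05 there were 3, Cd3g (log2 difference 1.42, edgeR adjusted p = 0.292), Ly6d (0.98, adjusted p = 0.309) and Cd2 (0.89, adjusted p = 0.254), where 9.97% of all genes were. The interaction was above 0 for 27 of 34, where 48.4% of all genes were, and so were all 12 pan-leukocyte, 10 endothelial and 9 mesenchymal genes, whose part was not tested. With single libraries left out the count ran from 22 (without Etv5KO lung 1, median 0.15) to 31 (without control AT2 library 1, median 0.42). In AT2 cells alone 19 of the 34 had too few reads to be tested, so their signs rest on few AT2 reads. The rise of Ly6d in AT2 cells and its lung value of 0.19 (95% interval -0.37 to 0.75) were not separated by the interaction term. Serpinb9, outside the members, had a difference of 0.40 (adjusted p = 0.0862).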

How the data were processed

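RNA was measured in 9 AT2 and 10 lung libraries. Each deposited count gives a gene's uniquely aligned reads, per the file headers, and the deposited RPKM (nRPKM) is adjusted by the authors' size factor. Per the submitters' processing notes, GSNAP and build mm9 were used, and the annotation, counting tool and strand setting were not stated. Unique reads undercount genes with near-identical copies, which the Klr, Gzm and Ly6 families may hold. Of 36528 IDs, 31049 were named from RefSeq (GRCm38.p6), holding 98.7% of counts, and the build differs from the files', so no gene coordinates beyond the promoter windows are given. The windows come from RefSeq, and 22 of 34 members matched.

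Counts were tested with edgeR 4.0.16 in R 4.3.3 (filterByExpr with minimum count 10 and total 15, TMM, two-sided quasi-likelihood F test, Benjamini-Hochberg adjustment over all genes tested, threshold 0.05), separately for each pair of groups, and over all 4 groups for the interaction. The F statistic gave the standard errors and 95% intervals. CPM per library were scaled over all 19 libraries, and nRPKM were used as deposited. Permutation tests went through every split of the libraries in Python 3.11.15. The fit was tested on simulated data with the same spread for every gene, which is unlike these data, so it does not vouch for the members. Alternatives were DESeq2 1.42.0, limma 3.58.1 (voom), library size or the authors' size factors as scaling, no filter or 1 CPM, 1 fit over all groups, and each library left out. A gene rose or fell where its adjusted p was under the threshold. Libraries are numbered in accession order, which pairs nothing, and the labels do not tie libraries to mice. The p-values weigh differences against the spread between these libraries. The design names 5 mice per genotype, so AT2 and lung libraries may share mice. Tests between tissues and of the interaction took them as independent. The fifth control AT2 library of the design was not analysed here.

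The members and lists were chosen with earlier results of these data known. The text names all 34 members, Ptprc, Pecam1, Epcam and Etv5, and from each further lymphocyte list the 2 genes of highest mean and up to 4 of smallest p past the threshold. One gene that this rule names is not reported here. Promoters were chosen by level in control lung.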

Additional observations from a re-analysis of the deposited data

Results flagged for a closer look

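In 5 of 136 combinations of a gene and a group, 1 library stood apart from the others of its group by a gap larger than Dixon's 95% critical value, where chance gives about 5 percent. Of these, 4 rest on at most 7 reads in AT2 cells: Cd5 at 0.460 CPM in Etv5KO AT2 library 1 (7 reads, the others 0.158 to 0.230 CPM), Zap70 at 0.0593 CPM in control AT2 library 4 (1 read, the others 0.303 to 0.341 CPM), Zap70 at 0 CPM in Etv5KO AT2 library 5 (0 reads, the others 0.296 to 0.394 CPM) and Ncr1 at 0.230 CPM in Etv5KO AT2 library 4 (4 reads, the others 0.103 to 0.131 CPM). The fifth has depth behind it: Ncr1, the NK cell receptor NKp46, stood at 8.91 CPM (152 reads) in control lung 2, above 5.48 to 6.07 CPM in the other control lungs and within the 3.83 to 9.01 CPM of the Etv5KO lungs. Control lung 2 was also the highest of the 10 lungs for 8 of the 34 genes and had the highest Ptprc, at 317 CPM.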

How the results depend on the processing

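Single-gene results were compared under each alternative in which the gene could be fitted (a sign change was counted only where a gene was called), and none turned its direction or lost its call. A call was gained 17 times. Between tissues Cd79b gained it under 7 alternatives in control and 2 in Etv5KO mice, where 34 genes were then lower instead of 33. Between genotypes in AT2 cells Cd79b gained it under 4 and Cd2 under 4. The number of lymphocyte genes called in AT2 cells between genotypes, 1, became 3 with DESeq2, 3 with library size as scaling and 2 in 1 fit over all groups, through Cd2 and Cd79b. Leaving out single libraries gave 1 to 2, with 2 without control AT2 library 3, Etv5KO AT2 library 2 or Etv5KO AT2 library 3. With library size as scaling the share of higher genes among all called in AT2 cells was 65.0% instead of 50.9%. In lung the 71 genes called overall became 197 with DESeq2 (62.4% higher instead of 49.3%), 122 in 1 fit over all groups, and 44 to 80 with a library left out, the lowest without control lung 4 and control lung 3 (44 and 47). For the interaction 282 became 467 with DESeq2. In none of these did the count of lymphocyte genes in lung or in the interaction leave 0. The cause of these shifts was not tested. No paired analysis was possible because the replicate numbers follow accession order and do not tie libraries to mice. Depth limits the AT2 comparison, where the 32 genes other than Cd79b and Ly6d had a median of 8 reads.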
